A study of Rattus norvegicus with 3 samples.

Results

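Aminoacyl-tRNA synthetases attach each amino acid to its own transfer RNA, the step that supplies the ribosome with charged tRNA. Together with the enzymes that make serine, glycine, asparagine, proline and one-carbon units, many of them are known targets of the transcription factor ATF4, which cells translate when amino acids run short or unfolded proteins accumulate. The genes described here are 36 of that kind, listed by name: 19 genes for cytosolic synthetases and 17 for enzymes of serine, one-carbon, asparagine, glutamine and proline metabolism and transamination. The list was drawn up by function, with earlier results of these data known. On the array, 35 of the 36 had at least 1 probe set annotated to that symbol alone, out of 14218 genes, and 54 of the 31099 probe sets belonged to them. Pycr1, which encodes an enzyme of the last step of proline synthesis, had none and was not analysed here.

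The RNA came from cardiomyocytes of fetal Wistar rats, an outbred strain, dispersed with enzymes and kept in culture for 48 hours after plating. For the next 24 hours the cells received fresh culture medium (control), medium conditioned by skeletal myoblasts or medium conditioned by cardiac fibroblasts. Each medium had 1 Affymetrix 3' expression array, so there is no spread between replicates, and no SD, standard error or p-value is given. The number of rats behind each culture is not given in the sources used here. All values are on a log2 scale and centred on the median array of each probe set. A level of 0.00 marks an array without a deposited value, read as 0. Where the other 2 arrays have values, it is the array in the middle. A difference of 1 between arrays is 2-fold. A level cannot be compared between genes. The measured yardstick of error was 42 probe sets for control transcripts meant to be added in equal amounts. Being added, they do not measure variation between cultures, which is unknown here. Their largest difference in size was 0.66 for myoblast medium against control. There the control transcripts ran from -0.01 to 0.66, so that their larger differences had the same direction as most of the genes described. The largest size was 0.68 for fibroblast medium against control, and 1.02 when the conditioned media were compared.

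The centred values do not show whether a gene was expressed, so the labelled cell type could be checked only by how its markers differed between arrays. Cardiomyocyte markers had a median log2 difference of -0.19 under myoblast medium and -0.73 under fibroblast medium, each against control. Under fibroblast medium 6 of 17 were at least 2-fold lower and 1, Csrp3, higher, and under myoblast medium Myh7 and Csrp3 were higher and Mb lower by that much. Fibroblast markers differed both ways under fibroblast medium, with 3 of 12 at least 2-fold higher, led by Mfap5 at 3.88 and Lox at 2.89, and 2 lower, and under myoblast medium 0 were higher and 2 lower. Macrophage markers were at least 2-fold higher under fibroblast medium in 12 of 15 genes, with differences from 0.08 to 5.41, and under myoblast medium 13 of 15 were below control (median -0.46). Endothelial markers were at least 2-fold lower in 10 of 13 genes under fibroblast medium and in 5 of 13 under myoblast medium. Skeletal myoblast markers ranged from -0.17 to 0.55 under myoblast medium. In 4 of 10, among them the muscle regulator Myod1, the difference of 0.00 came from arrays without a value, read as 0. In a bulk culture, fewer cells of a type and less RNA per cell cannot be told apart. The part of these cell type differences in the results below was not tested.

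Myoblast-conditioned medium was compared first with the fresh medium. Genes for charging tRNA and for making serine, one-carbon units and asparagine were higher in myoblast medium. Of 35 measured genes, 16 (45.7%) were at least 2-fold higher and 0 were 2-fold lower, where 1.35% of all genes were higher by that much and 0.844% lower. The median log2 difference was 0.97, against 0.00 over all genes, and 33 of the 35 were above 0. The exceptions were Qars1, for glutaminyl-tRNA synthetase, at -0.20 and Glul, for glutamine synthetase, at -0.40. Both were below the lowest control transcript, at -0.01, but smaller in size than the largest, at 0.66. Differences above 0.66, the largest of the control transcripts, were found for 22 of the 35 genes and for 3.19% of all genes. The synthetases and the enzymes of synthesis had similar medians, 0.91 over 19 genes and 0.99 over 16.

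**Figure D1:**
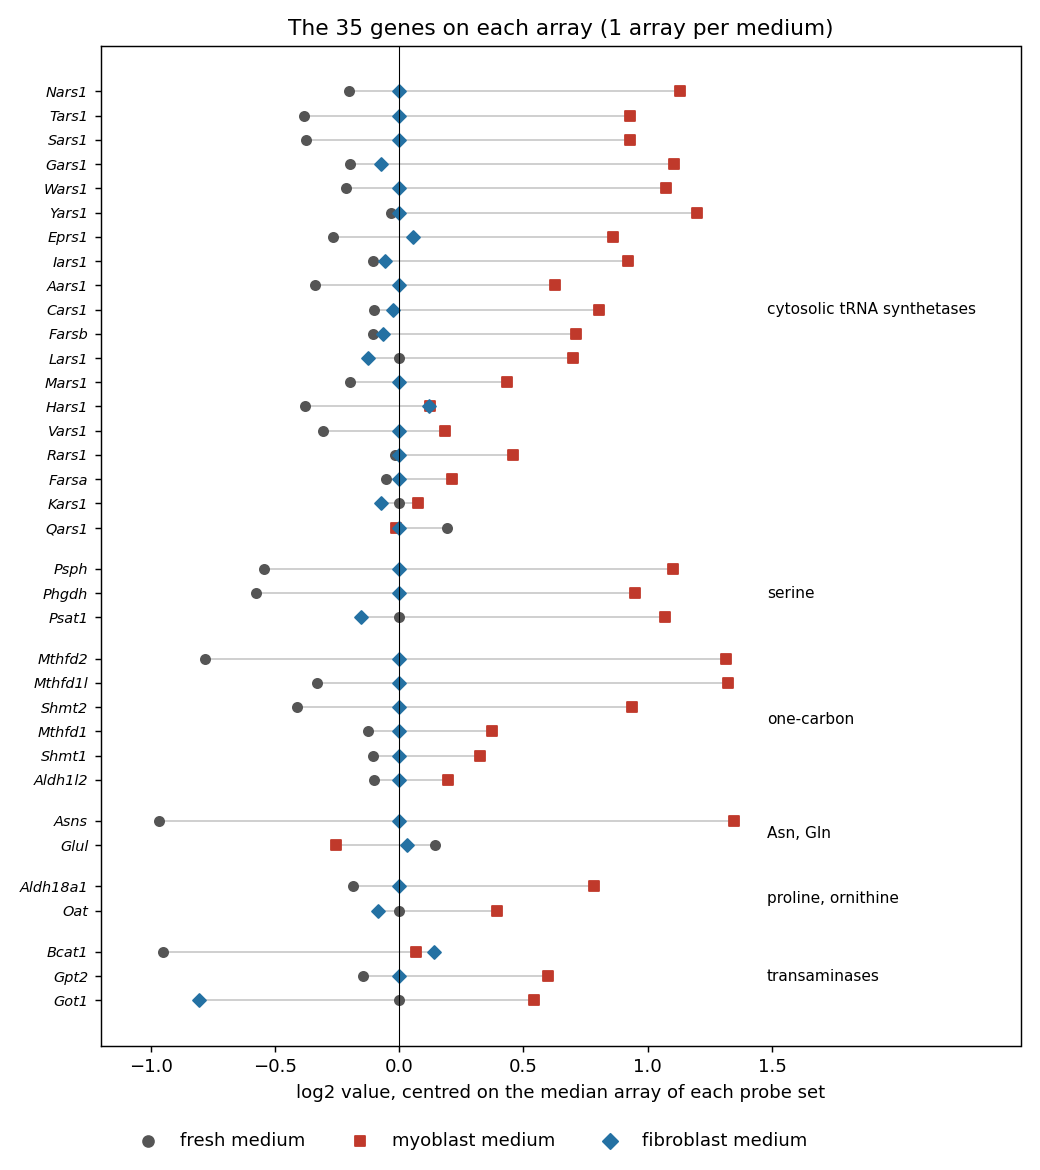
Centred log2 value of each of the 35 genes (rows, grouped by role) on the 3 arrays: fresh medium (circles), myoblast medium (squares) and fibroblast medium (diamonds), with 1 array each. The myoblast array is the highest for 32 of the 35 genes, and the fibroblast array lies near the control for most synthetases.

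Asparagine synthetase had the largest difference. Asns, which makes asparagine from aspartate and glutamine, was at -0.97 on the control array, 1.35 on the myoblast array and 0.00 on the fibroblast array. The myoblast array was thus 4.96-fold above control, at rank 15 of 14218 genes, and the fibroblast array 1.95-fold above control. Glul, which makes glutamine from glutamate, went the other way, with 0.14 on the control array, -0.26 under myoblast medium and 0.03 under fibroblast medium. All 3 of its probe sets were lower under myoblast medium than in control, by log2 differences from -0.43 to -0.34.

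The pathway of serine synthesis from a glycolytic intermediate was at least 2-fold higher in myoblast medium at each of its 3 steps. Phgdh, the first enzyme, was at -0.57 in control, 0.95 under myoblast medium and 0.00 under fibroblast medium. Psat1, the transaminase of the middle step, was at 0.00, 1.07 and -0.15 on the same arrays in that order. Psph, the phosphatase that releases serine, was at -0.54, 1.10 and 0.00. The differences between myoblast medium and control were therefore 1.52, 1.07 and 1.64. The middle step differed from the others under fibroblast medium, where Phgdh and Psph were above control, by 0.57 and 0.54, and Psat1 was not. All 3 differences were smaller in size than the largest control transcript difference of that comparison, 0.68.

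Among the one-carbon genes, the largest differences were in mitochondrial enzymes. Serine gives its side-chain carbon to folate in both the mitochondrion and the cytosol, and the mitochondrial branch releases formate. Of the 4 mitochondrial genes, 3 were at least 2-fold higher in myoblast medium and the median difference was 1.5. Mthfd2, the mitochondrial dehydrogenase and cyclohydrolase, was at -0.78 in control, 1.31 under myoblast medium and 0.00 under fibroblast medium, a 4.27-fold difference between myoblast medium and control at rank 18 of all genes. Mthfd1l, which releases formate, was at -0.33, 1.32 and 0.00. Shmt2, the mitochondrial serine hydroxymethyltransferase, was at -0.41, 0.94 and 0.00. These 3 genes make consecutive enzymes of the branch, and in each the myoblast array stood above both others by more than 0.9. Aldh1l2, which oxidises formyl-folate in the mitochondrion, was higher by only 0.30. The cytosolic genes Shmt1 and Mthfd1 were higher by 0.43 and 0.50, more than Aldh1l2 and below the largest control transcript difference, so the compartments overlapped.

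Genes of other folate and glycine steps, listed by function, differed less. None of 16 measured reached 2-fold in either direction in myoblast medium, and their median difference was 0.18. The largest was Gcsh, a carrier protein of the glycine cleavage system, at 0.76, followed by Fpgs, which adds glutamate to folate, at 0.64. Mthfd2l, a mitochondrial isozyme of Mthfd2, was higher by 0.27, and Aldh1l1, the cytosolic counterpart of Aldh1l2, had a difference of 0.00. Tyms, the thymidylate synthase that uses one-carbon units for DNA, was at -0.10. The 21 cell cycle genes, Tyms among them, had a median of -0.09 with 0 past 2-fold.

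Proline and transaminase genes were higher by smaller amounts. Aldh18a1, which starts proline synthesis from glutamate, was at -0.18 in control, 0.78 under myoblast medium and 0.00 under fibroblast medium, a difference of 0.97 just under 2-fold. Oat, which links ornithine to the same intermediate, was at 0.00, 0.39 and -0.09. Among the transaminases, Gpt2, the mitochondrial alanine transaminase, was higher by 0.74 in myoblast medium, while its cytosolic counterpart Gpt was at -0.04. Bcat1, the cytosolic branched-chain transaminase, was at -0.95 in control, 0.07 under myoblast medium and 0.14 under fibroblast medium. By the mean of its 2 probe sets, it was the only one of the 35 genes at least 2-fold above control in both conditioned media. These probe sets differed in size. The first was under 2-fold in both media, at 0.58 under myoblast and 0.45 under fibroblast medium. The second was at 1.46 and 1.74, so the 2-fold calls rest on that probe set.

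Got1, the cytosolic aspartate transaminase of the malate-aspartate shuttle, had the widest gap of the 35 genes between the conditioned media on opposite sides of control. It was at 0.00 in control, 0.54 under myoblast medium and -0.80 under fibroblast medium. Its mitochondrial partner Got2 was at 0.06, 0.20 and -0.62. Both isozymes were thus lowest on the fibroblast array, where cardiomyocyte markers were also lower.

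Among the 19 synthetases, 8 were at least 2-fold higher in myoblast medium, 18 were above 0 and the differences ran from -0.20 to 1.33. Nars1, for asparaginyl-tRNA synthetase, was at -0.20 in control, 1.13 under myoblast medium and 0.00 under fibroblast medium, a 2.52-fold difference between myoblast medium and control. Tars1, for threonine, was at -0.38, 0.93 and 0.00, and was 2.48-fold higher. Sars1, for serine, was at -0.37, 0.93 and 0.00, and was 2.47-fold higher. In these 3 the fibroblast array lay between the others and nearer to control.

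Gars1, for glycine, was at -0.20 in control, 1.11 under myoblast medium and -0.07 under fibroblast medium. Wars1, for tryptophan, was at -0.21, 1.07 and 0.00. Yars1, for tyrosine, was at -0.03, 1.20 and 0.00, so that control and fibroblast medium were nearly equal. The remaining genes past 2-fold were Eprs1, the bifunctional enzyme for glutamate and proline, at a difference of 1.13, and Iars1, for isoleucine, at 1.03. Just under 2-fold were Aars1, for alanine, at 0.97 and Cars1, for cysteine, at 0.91. The Cars1 mean includes a probe set that was blank throughout and counted as 0.00, and its 3 probe sets with values were all past 2-fold, at 1.16, 1.19 and 1.27. Farsb, for the beta subunit of the phenylalanine enzyme, followed at 0.82, Lars1, for leucine, at 0.70 and Mars1, for methionine, at 0.63.

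The synthetases with the smallest differences in myoblast medium were Hars1, for histidine, at 0.50, Vars1, for valine, at 0.49, Rars1, for arginine, at 0.48, Farsa at 0.26, Kars1, for lysine, at 0.08 and Qars1 at -0.20. The first 5 lay within the range of the control transcripts. The Vars1 mean includes a probe set that was blank throughout and counted as 0.00. Its only probe set with values was at 0.99, above that range. Qars1 was at 0.19 in control, -0.01 under myoblast medium and 0.00 under fibroblast medium, the reverse order of most synthetases. Kars1 was at 0.00, 0.08 and -0.07. Genes whose products work together did not differ alike: Farsa and Farsb, the subunits of 1 enzyme, were at 0.26 and 0.82. Gars1 and Kars1, which each encode both a cytosolic and a mitochondrial enzyme, were at 1.30 and 0.08.

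Synthetases fall into structural classes I and II, and some sit together in a large multi-synthetase complex. Class I genes had a median difference of 0.80 (10 genes, 4 past 2-fold) and class II genes 0.97 (9 genes, 4 past 2-fold) between myoblast medium and control. The bifunctional Eprs1, past 2-fold, was counted in class I alone. The 7 genes of enzymes in the complex had a median of 0.63, with 2 past 2-fold, and the 12 others a median of 1.10, with 6 past 2-fold. The ranges overlapped, from -0.20 to 1.13 inside the complex and from 0.26 to 1.33 outside it. Of the scaffold genes of the complex, Aimp2 was higher by 0.70, Aimp1 by 0.49 and Eef1e1 by 0.08.

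Mitochondria carry a separate set of synthetases, encoded for the most part by other genes. Of 13 measured, 0 reached 2-fold in myoblast medium and the median difference was 0.02, from -0.41 for Vars2 to 0.40 for Rars2. In 12 pairs of 1 cytosolic and 1 mitochondrial gene for the same amino acid, the cytosolic gene had the higher difference in 12, by a median of 1.13. Phenylalanine was left out of the pairs because its cytosolic enzyme has a gene for each of 2 subunits, Farsa and Farsb, and its mitochondrial gene Fars2 was at 0.08. The smallest gap was between Rars1 and Rars2, at 0.07, and the largest between Sars1 and Sars2, at 1.31. Ears2, the mitochondrial partner of Eprs1, had no value on any of the 3 arrays and was read as 0.00. Sars2 had none on the control and myoblast arrays. Under myoblast medium the gaps of these pairs therefore rest on the cytosolic gene alone.

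**Figure D2:**
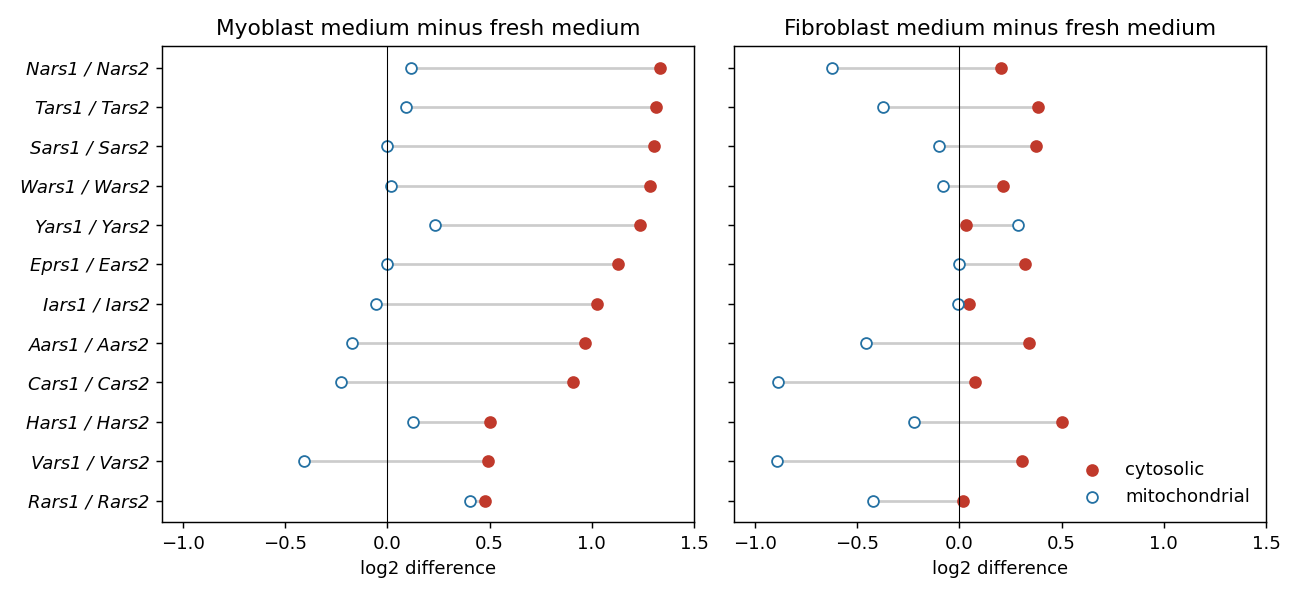
Log2 difference from fresh medium (x axis) for 12 pairs of cytosolic (filled) and mitochondrial (open) synthetase genes under myoblast medium (left) and fibroblast medium (right), with 1 array per medium. The cytosolic gene lies to the right in 12 of 12 pairs on the left and in 11 of 12 on the right. Ears2 had no value on any array and is drawn at 0.00, as is Sars2 on the left.

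The promoters of these genes were searched for the composite element of ATF and C/EBP factors, since the genes were higher together. The windows, from RefSeq on rat assembly GRCr8, run from 250 bases before to 50 after the start of each gene, and 31 of the 36 listed genes had a window. The letters TGATGCAAT, on either strand, were found for 3 of the 31 genes (Aars1, Iars1 and Pycr1) and for 0.211% of 27457 genes in the table, which include noncoding genes. With the shorter TGATGNAA, which the full letters contain, 9 of the 31 (29.0%) had a match, against 4.16% of all genes. Those 9 all had the letters TGATGCAA, which occur in windows of 0.827% of all genes. A match describes letters in a window and is not a binding site, and the search draws nothing about genes without one.

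The 9 genes were Nars1, Tars1, Yars1, Iars1, Aars1, Cars1, Mars1, Got1 and Pycr1. The first 6, in order of their difference between myoblast medium and control, are shown to let the matches be compared, each on the strand of its gene, with the matched letters in capitals (TGATGCAA, or TTGCATCA where the match reads on the opposite strand). For matches before the start the 250 bases upstream are given, and for Yars1 and Cars1, whose match lies after the start, 30 bases around it.
Nars1, GRCr8 chr18:60275783-60276032, minus strand: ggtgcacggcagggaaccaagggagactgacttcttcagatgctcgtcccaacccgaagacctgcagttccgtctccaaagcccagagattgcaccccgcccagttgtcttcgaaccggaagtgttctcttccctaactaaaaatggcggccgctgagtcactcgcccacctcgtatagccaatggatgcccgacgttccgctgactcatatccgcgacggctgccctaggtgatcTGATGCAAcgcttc
Tars1, GRCr8 chr2:62114803-62115052, minus strand: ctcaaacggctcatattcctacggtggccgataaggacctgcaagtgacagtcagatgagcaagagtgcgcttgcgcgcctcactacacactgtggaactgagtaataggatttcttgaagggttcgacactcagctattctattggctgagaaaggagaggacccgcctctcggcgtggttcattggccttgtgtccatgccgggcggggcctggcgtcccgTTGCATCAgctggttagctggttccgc
Yars1, GRCr8 chr5:146820183-146820212, plus strand: cggagctacgagctcagcTGATGCAAcctg
Iars1, GRCr8 chr17:15193653-15193902, minus strand: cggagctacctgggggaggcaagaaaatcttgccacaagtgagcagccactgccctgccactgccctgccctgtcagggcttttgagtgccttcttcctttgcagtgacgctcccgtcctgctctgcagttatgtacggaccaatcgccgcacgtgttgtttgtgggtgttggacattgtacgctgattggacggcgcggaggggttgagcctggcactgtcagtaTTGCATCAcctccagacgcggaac
Aars1, GRCr8 chr19:55908232-55908481, plus strand: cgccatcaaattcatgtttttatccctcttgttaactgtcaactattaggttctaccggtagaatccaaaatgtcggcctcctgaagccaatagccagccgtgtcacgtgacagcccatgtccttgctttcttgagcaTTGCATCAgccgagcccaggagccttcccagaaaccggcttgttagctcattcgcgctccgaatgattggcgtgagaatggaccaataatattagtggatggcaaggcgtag
Cars1, GRCr8 chr1:208225334-208225363, minus strand: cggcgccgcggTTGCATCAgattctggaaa

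In Nars1 the match began 14 bases before the start, in Iars1 24, in Tars1 27 and in Aars1 112. In Yars1 it began at base 39 and in Cars1 at base 18 of the transcript. Mars1 had its match 17 bases before the start, Pycr1 131 and Got1 167. Aars1 had a further match to the shorter letters, TTTCATCA, at base 10 of the transcript. Of 17 synthetases with a window, the 7 with a match had log2 differences between myoblast medium and control from 0.63 to 1.33 (median 1.03), and the 10 without one from -0.20 to 1.31 (median 0.60). The ranges overlapped: Sars1, Wars1 and Eprs1, all past 2-fold, and Asns had no match in this window. Whether a match goes with the size of the difference was not tested. Gars1, Rars1, Mthfd1, Aldh1l2 and Aldh18a1 were not searched.

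Most regulators of the amino acid response, listed by function, were also higher under myoblast medium. Of 12 measured, 9 were at least 2-fold higher in myoblast medium, against 1.35% of all genes. Atf4 itself was at 1.59, the pseudokinase gene Trib3 at 3.82 and Ddit3, for the transcription factor CHOP, at 3.09. Under fibroblast medium 11 of the 12 were above control, as were 5824 of all 14218 genes. Their median of 0.58 was below the largest control transcript difference of 0.68. Past 2-fold, against 4.26% of all genes, were Nupr1, 4.01-fold higher, and Cebpb, 3.45-fold higher. Apart from these, only Trib3 at 0.95 and Atf3 at 0.93 were above 0.68. Nupr1, Cebpb and Atf3 were lower under myoblast than under fibroblast medium, by log2 differences of -0.60, -0.74 and -0.55.

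Cells in fibroblast-conditioned medium were then compared with the same control. Most of the synthetase and synthesis genes were near control here. Of 35, 1 (Bcat1, at 1.09) was at least 2-fold higher and 0 were 2-fold lower, against 4.26% and 2.6% of all genes. The median log2 difference was 0.14, against 0.00 over all genes, with 28 genes above 0 and 7 below. Only Bcat1, Asns at 0.97 and Mthfd2 at 0.78 were above the largest control transcript difference of 0.68, a share of 8.57% against 7.46% of all genes. That share is near the background. The 19 synthetases had a median of 0.12 and a range from -0.19 for Qars1 to 0.50 for Hars1, so that none lay beyond the control transcripts.

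The genes below control in fibroblast medium were Got1 at -0.80, Qars1 at -0.19, Psat1 at -0.15, Lars1 at -0.12, Glul at -0.11, Oat at -0.09 and Kars1 at -0.07. All but Got1 lay inside the range of the control transcripts. Mitochondrial synthetases had a median of -0.22, with 11 of 13 below control, led by Vars2 and Cars2, both at -0.89. Cytosolic genes were above their mitochondrial partners in 11 of 12 pairs, by a median of 0.60, and Yars1 against Yars2 was the exception at -0.25. The lower mitochondrial genes and the lower cardiomyocyte and endothelial markers came from the same array, and whether they are linked was not tested.

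**Figure D3:**
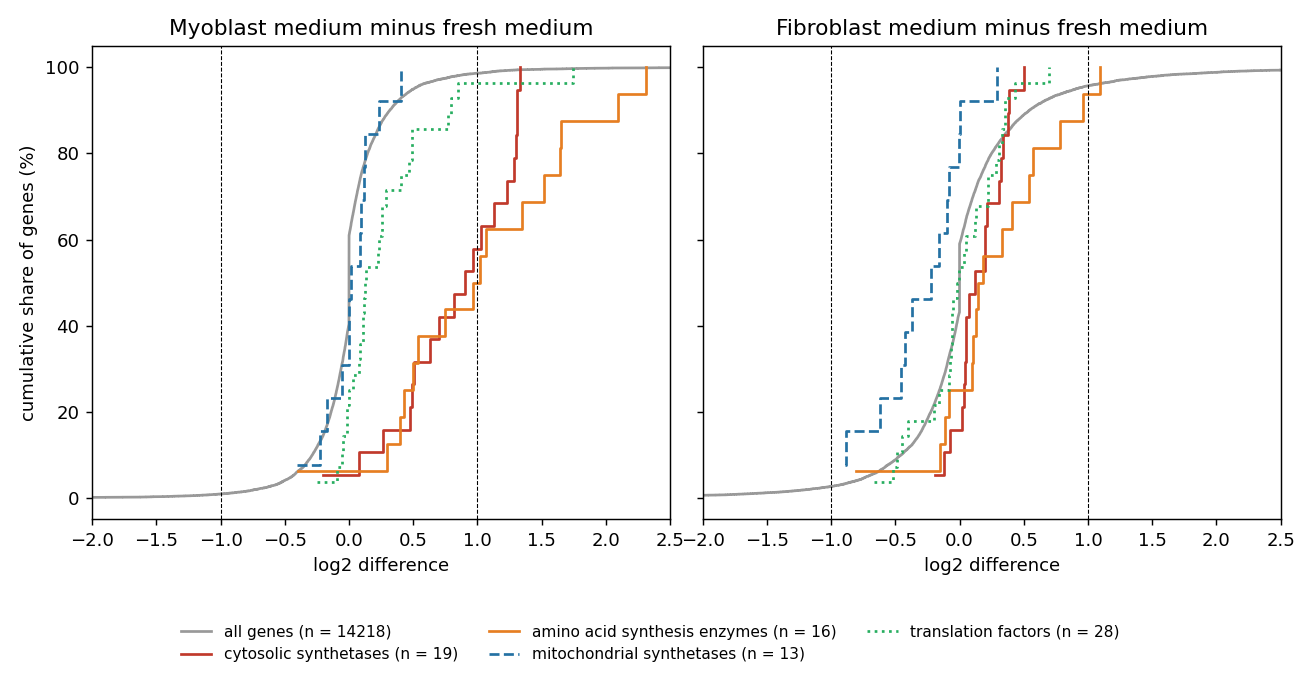
Cumulative share of genes (y axis, %) at or below a log2 difference (x axis) for all genes and for 4 groups, under myoblast medium (left) and fibroblast medium (right) against fresh medium; dashed lines mark 2-fold. The curves of cytosolic synthetases and synthesis enzymes lie to the right of all genes under myoblast medium, with medians of 0.91 and 0.99, and near them under fibroblast medium, with medians of 0.12 and 0.16.

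The last comparison was between the conditioned media. It shares its arrays with the other comparisons. Of 35 genes, 10 were at least 2-fold higher in myoblast than in fibroblast medium and 0 were 2-fold lower, against 2.12% and 3.94% of all genes, with a median of 0.80. The same 10 genes lay above the largest control transcript difference of 1.02, as did 2.05% of all genes. They were Asns and Got1, both at 1.35, Mthfd1l at 1.32, Mthfd2 at 1.31, Psat1 at 1.22, Yars1 at 1.20, Gars1 at 1.18, Nars1 at 1.13, Psph at 1.10 and Wars1 at 1.07. The value for Got1 combined a higher level in myoblast medium with a lower one in fibroblast medium, and that of Asns was reduced by the higher level in fibroblast medium.

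Across the 3 arrays, 32 of the 35 genes (91.4%) were highest under myoblast medium, against 23.7% of all genes. The full order of myoblast medium, then fibroblast medium, then control was found for 27 (77.1%), against 8.31% of all genes. Among these 27, only Asns and Mthfd2 exceeded the largest control transcript difference of 0.68 between fibroblast medium and control. For the rest, the order of those arrays rests on differences no larger than that. The 8 others were Kars1, Lars1, Psat1, Oat and Got1, lowest in fibroblast medium, Bcat1, highest in fibroblast medium, and Qars1 and Glul, highest in control. For Hars1 the conditioned media were only 0.004 apart.

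Probe sets of 1 gene gave a check within each array. Among the 14 genes with more than 1 probe set, 0 had probe sets of opposite sign between myoblast medium and control. Between fibroblast medium and control 6 did, among them Gars1, with probe sets at -0.15 and 0.40. Eprs1 had 4 probe sets under myoblast medium from 0.00 to 1.74, and Cars1 4 from 0.00 to 1.27. In Cars1 and Vars1, 1 probe set was blank throughout and entered as 0.00, which lowers the mean: the other probe set of Vars1 was at 0.99 against a mean of 0.49. The probe sets of Gars1 lay close together under myoblast medium, at 1.30 and 1.31.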

How the data were processed

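RNA of 3 cultures was purified on Qiagen RNeasy mini columns and labelled with biotin by the 3' IVT Express procedure, per the labels' protocols, with 1 array per culture. The deposited values are log2 values from RMA, per the submitters' processing notes; which software ran it is not given in the sources used here. As the values show, probe sets were centred on their median array, which was left blank: of 31099, 17117 have 2 values of opposite sign. A further 8002 have 1, 5980 have 0, and 0 have 3. In those with 1 or 0 values, a blank does not mark a single middle array. Blanks were read as 0. Signal over background is therefore unknown.

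Platform annotation paired 20832 probe sets with 1 symbol and 436 with several, and left 9831 unnamed here. Entrez IDs gave current RefSeq symbols (GRCr8) for 20764, and older synthetase symbols without the final 1 were accepted. A gene's value is the mean of its probe sets. The 2 media of a comparison were subtracted and genes with a difference of at least 1 (2-fold) counted. With 1 array per medium there is no test. Control transcripts had 18 hybridisation and 24 poly-A probe sets. Between arrays the 3' minus 5' difference moved by at most 0.37 for beta-actin and 0.02 for Gapdh.

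The genes and lists were chosen with earlier results of these data known. Every listed gene with a probe set is named, and of other lists up to 4 genes with the largest difference in a comparison. Named outside this rule, after their values were seen, were isozymes, mitochondrial partners and fellow subunits of named genes, and Asl, Atf4, Atf3, Eef2, Tyms and Myod1. The 8 letters TGATGCAA were added after the data were seen. Alternatives were another summary of probe sets, a set without those named _x_at, _s_at or _a_at, and a set with values on 2 arrays only. Arrays centred on their medians, and 1.5-fold and 3-fold, were used as well. Python 3.11.15, NumPy 2.4.6, pandas 2.3.3 and Matplotlib 3.10.9 were used.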

Additional observations from a re-analysis of the deposited data

Results flagged for a closer look

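For 5 genes the conditioned media lay on opposite sides of control, which puts them apart from the others. With 1 array per medium this difference was not tested. The log2 difference between myoblast and fibroblast medium was 1.35 for Got1, 1.22 for Psat1, 0.83 for Lars1, 0.48 for Oat and 0.15 for Kars1. In Got1 the difference from control was 0.54 in one direction and -0.80 in the other, and only the second exceeded the largest control transcript difference of its comparison. In Psat1, Lars1, Oat and Kars1 the difference between fibroblast medium and control was no larger than 0.15 in size.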

How the results depend on the processing

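No paired analysis was possible because each medium had 1 array. Over 87 values (counts and medians of the 35 genes, the synthetases and the synthesis enzymes in 3 comparisons, under the alternatives), 77 stayed within 1.5 times (counts) or 0.1 (medians) of the reported value, and 0 medians changed direction. With the probe set of widest range, the synthetase median between myoblast medium and control was 1.01, and between the conditioned media the medians of all 35 genes and of the synthetases were both 0.93. With only probe sets that have values on 2 arrays, which leaves out blank ones, 17 genes were at least 2-fold higher in myoblast medium than in control (16 reported) and 12 between the conditioned media (10 reported). With each array centred on the median of its values, 2 genes were at least 2-fold higher in fibroblast medium than in control. At 1.5-fold, 3 genes were higher and 1 lower in that comparison, and 22 were higher in myoblast than in fibroblast medium. At 3-fold, 4 genes were higher in myoblast medium than in control, 0 in fibroblast medium than in control and 0 between the conditioned media. The shorter motif and its 8-letter form each gave 9 genes against 3. Centred values give no signal over background, so small differences of weakly expressed genes cannot be set apart from absence of signal.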

Other observations

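Some arginine genes were higher in the fibroblast array. Of 21 other genes of amino acid metabolism, 2 were at least 2-fold higher in fibroblast medium than in control, against 4.26% of all genes. They were Arg1, the urea cycle arginase, by 3.70 (13.0-fold), and Ass1, which makes the precursor of arginine from citrulline, by 2.80 (6.99-fold). The other arginase gene, Arg2, was at 0.02, and Asl, also of arginine synthesis, at 0.46. Under myoblast medium Arg1 was at -0.18 and Ass1 at 0.67. Macrophage markers were higher in the fibroblast array as well, at least 2-fold in 12 of 15 genes, and their part in these values was not tested. None of the 21 reached 2-fold in myoblast medium, where Dbt, a subunit of the branched-chain ketoacid dehydrogenase, at 0.79 and Odc1, the ornithine decarboxylase of polyamine synthesis, at 0.74 were the largest.

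Translation factors, which use charged tRNA or start translation, had a median of 0.13 in myoblast medium against control, with 1 of 28 past 2-fold. That gene was Eif2b3, a subunit of the exchange factor for eIF2, at -0.43 in control, 1.31 under myoblast medium and 0.00 under fibroblast medium. The other measured subunits of the exchange factor, Eif2b1, Eif2b2, Eif2b4 and Eif2b5, were at 0.12, 0.13, 0.29 and 0.09. Eif2s2, a subunit of eIF2, was higher by 0.85 and the elongation factor Eef2 was at -0.01.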
